A study of Mus musculus with 9 samples.

Results

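The genes that drive the SB28 mouse glioma and their pathway partners were followed through 9 RNA sequencing libraries. The members were 9 genes of the 24421 rows of the deposited table, taken by symbol: the PDGF ligands Pdgfa and Pdgfb, the PDGF receptors Pdgfra and Pdgfrb, the RAS genes Nras and Hras, the RAS inhibitor Nf1, and the tumor suppressors Trp53 and Cdkn2a. SB28 is a glioma line of C57BL/6 origin that carries GFP and luciferase. Its cells were implanted into the brains of C57BL/6J mice aged 6 to 8 weeks, and 3 libraries came from control tumors and 3 from tumors of mice given BAL101553, the orally available prodrug of BAL27862, a microtubule-binding drug that activates the spindle assembly checkpoint. A further 3 libraries are labelled astrocytes, with BAL101553 as their treatment, and are not described in the study's text.

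By the study's methods, tumor cells were sorted ex vivo as CD45-CD11b-GFP+, whereas the labels call the material whole tissue. Controls were harvested at day 21 and treated tumors at day 33 or 35, the Results and Methods differing, so drug and time of growth cannot be told apart. The study states 2 ex vivo samples per group and the table holds 3. Its data statement names a deposit other than the one analyzed, which bears the study's title, so that the sort, harvest days and mouse age are the study's account and were not given for these libraries one by one. Nothing in the labels says that the libraries came from separate mice, and p-values therefore measure the spread between these libraries.

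PDGF ligands bind receptor tyrosine kinases that load RAS with GTP, and RAS passes the signal to the RAF-MEK-ERK kinases and to PI3K. Neurofibromin, the product of Nf1, switches RAS off. p53, encoded by Trp53, arrests or kills damaged cells, and Cdkn2a encodes p16INK4a, which holds back CDK4 and CDK6, and p19ARF, which shields p53 from MDM2. Human gliomas recurrently alter these same routes, and SB28 itself was built with transposons that carry NRAS, a PDGF ligand and a short hairpin RNA against p53. A count per gene cannot tell transgene reads from those of the mouse's own gene.

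Before levels were read, the members were checked for how well their reads separate. No run of 50 bases, the length of the reads, was shared between the annotated transcripts of any pair among the 9 members, Nras and Hras included, which encode nearly the same protein. Trp53 shared most with other genes, 164 of its 4230 runs (3.88%), among them runs of the pseudogene Trp53-ps, so a small part of its reads may be split or lost. Pdgfa shares 813 exonic bases with an antisense transcript, 6330403L08Rik, and Pdgfra shares 456 and 166 with the antisense transcripts Gm42802 and Gm42803. The libraries were stranded, but whether counting used strand is not given in the sources used here.

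Between 22919523 and 34013875 reads were counted per library. Levels are given as CPM, read counts brought to a common library size by the trimmed mean of M values (TMM) over the 9 libraries. Changes between groups are log2 fold changes from the quasi-likelihood test of edgeR. The p was adjusted by Benjamini and Hochberg's method over all genes tested, those that passed the filter on low counts in each comparison. A gene is called where its adjusted p is under 0.05. Markers of other brain cells were read over whole lists. The summed level of 6 oligodendrocyte genes was 15.1 to 20.5 CPM in tumor libraries against 10495 to 13036 CPM in the libraries labelled astrocytes, and that of 8 microglia and macrophage genes 2.06 to 4.51 CPM against 437 to 945 CPM. The sum of 8 astrocyte genes was 671 to 965 CPM in tumor libraries, mostly Gja1, against 12375 to 15147 CPM. The sum of 7 endothelial genes was 512 to 867 CPM in tumor libraries, mostly Cdh5, against 208 to 241 CPM in the libraries labelled astrocytes. In tumor libraries Cldn5 was at no more than 1.45 CPM and Flt1 at 23.8 to 69.7 CPM. The sum of 7 neuronal genes was 56.7 to 87.9 CPM, mostly Tubb3 and Stmn2, with Rbfox3 at 0, against 37.6 to 45.0 CPM. Both sums were lower after BAL101553 than in control, 512 to 640 against 728 to 867 CPM and 56.7 to 60.1 against 63.5 to 87.9 CPM, as was the astrocyte sum, 671 to 786 against 923 to 965 CPM, and their part in the results was not tested. Aqp4, the astrocyte water channel, was at 554 to 724 CPM in the libraries labelled astrocytes and at no more than 0.208 CPM in tumor libraries. The same 3 libraries also held the oligodendrocyte and microglial transcripts just given, so they are called the libraries labelled astrocytes. Fewer cells of a type and less RNA per cell cannot be told apart in such bulk samples.

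After BAL101553 treatment, the p53 gene and both PDGF receptors were higher, Nf1 was higher and Hras was lower, while Nras, both ligands and Cdkn2a did not pass the test. Trp53 showed the largest change, 2.78-fold, and Pdgfra the next, 1.94-fold. In all, 5 of the 9 members were called, 4 higher and 1 lower, in a comparison in which 14.7% of 12633 genes were called, 8.64% higher and 6.09% lower. Their median log2 fold change was 0.12, beside 0.02 over all genes tested.

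**Figure D1:**
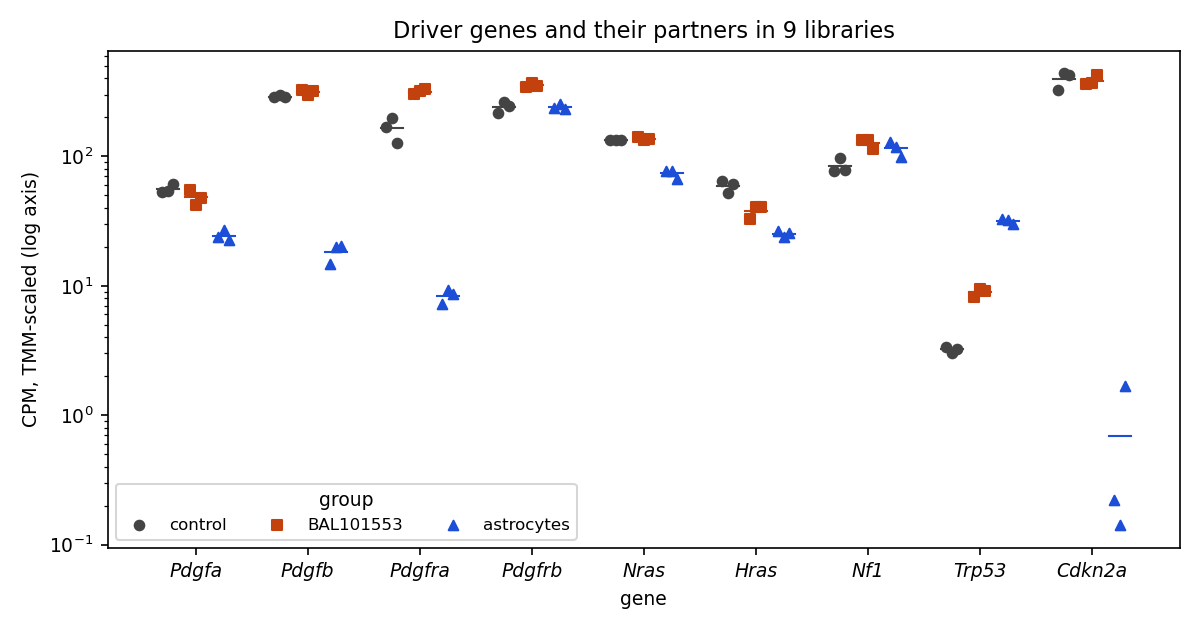
Level of the 9 genes in each library, in TMM-scaled CPM on a log axis, with 1 symbol per library and a short line at the mean of each group of 3. Trp53 climbs from about 3 CPM in control to 9 in BAL101553 and 32 in the libraries labelled astrocytes, whereas Pdgfb, Pdgfra and Cdkn2a are far lower in the latter.

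**Figure D2:**
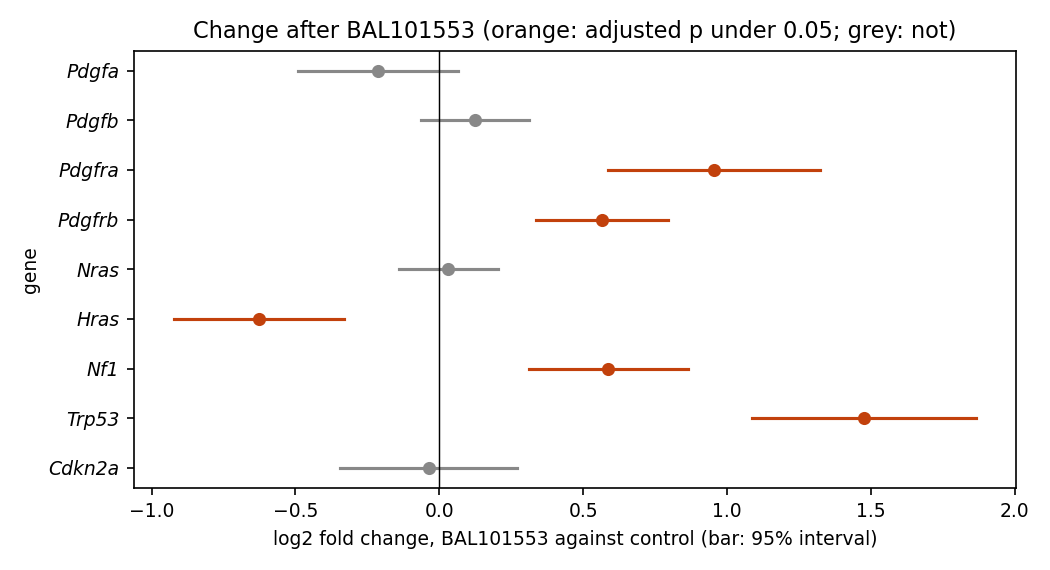
Log2 fold change of each gene, BAL101553 against control, with its 95% interval as a bar; orange marks genes called by edgeR and grey the rest. The intervals of Trp53, Pdgfra, Pdgfrb and Nf1 lie above 0 and that of Hras below it.

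The PDGF ligands were examined first. Pdgfb, whose product binds both receptors (chr15:79995874-80014977, minus strand), stood at 287, 297 and 285 CPM in control tumors and at 324, 299 and 318 CPM after BAL101553. Every treated library was above every control library, but by little, and the gene did not pass the test (log2 fold change 0.12, SE 0.081, 95% interval -0.06 to 0.31, adjusted p = 0.321 by edgeR). Groups that do not overlap are common in this comparison, at 39.7% of all genes tested, 20.0% higher and 19.7% lower, and 6 members were of this kind, 5 higher and 1 lower. Pdgfa, the ligand of the alpha receptor (chr5:138976014-138997370, minus strand), gave 53.2, 53.8 and 61.5 CPM in control and 55.1, 42.4 and 47.2 CPM in treated tumors. The groups overlapped and the difference did not pass the test (log2 fold change -0.21, SE 0.12, adjusted p = 0.249 by edgeR). For both ligands the 95% interval excludes a change of 2-fold in either direction.

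Both receptors were higher after treatment. Pdgfra, the receptor that binds all PDGF chains but the D chain (chr5:75152292-75198215, plus strand), read 169, 198 and 126 CPM in control tumors and 300.4, 319 and 330.1 CPM in BAL101553-treated tumors. The lowest treated library lay well above the highest control library, and the control libraries spread more widely (SD 36.2) than the treated ones (SD 15.0). The rise was 1.94-fold (log2 fold change 0.95, SE 0.16, 95% interval 0.59 to 1.32, adjusted p = 0.0134 by edgeR), and it was called with any single library left out. Pdgfrb, the receptor of the B and D chains (chr18:61045150-61085061, plus strand), moved from 216, 261 and 247 CPM to 345, 371 and 350.3 CPM. Again no library of one group reached into the other, and the rise was 1.48-fold (log2 fold change 0.57, SE 0.099, 95% interval 0.34 to 0.79, adjusted p = 0.0144 by edgeR). The log2 fold change was 0.49 without control 1 (adjusted p = 0.0533 by edgeR) and 0.58 without control 3 (adjusted p = 0.0653). With these libraries left out, the genes called in the whole table fell from 1860 to 458 and 193.

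Pdgfra also marks oligodendrocyte precursors and Pdgfrb marks pericytes, and the markers of both were therefore read beside them. The summed level of 7 precursor genes was 63.9 to 234 CPM in control and 132 to 300 CPM in treated tumors, nearly all of it Cspg4. Sox10, which defines the lineage, was at most 0.313 CPM in tumor libraries, against 367 to 499 CPM in the libraries labelled astrocytes. The sum of 8 mural cell genes was 843 to 1083 CPM in control and lower, 490 to 711 CPM, after BAL101553, nearly all of it Acta2 and Tagln, the smooth muscle actin and transgelin genes. Of the 8, 5 were tested and they went both ways. Acta2 (log2 fold change -0.74, adjusted p = 0.0220 by edgeR) and Rgs5 (-2.36, adjusted p = 0.0371) were lower, and Anpep, an aminopeptidase gene, was higher, from 14.2 to 18.6 CPM in control to 20.7 to 24.7 CPM (0.56, adjusted p = 0.0426), while Notch3 (0.52, adjusted p = 0.216) and Tagln (-0.27, adjusted p = 0.436) did not pass. Anpep in tumor libraries reached the level of the libraries labelled astrocytes, 22.2 to 22.9 CPM. The pericyte genes Vtn, Kcnj8 and Abcc9 were at most 0.405, 0.0834 and 0.117 CPM in tumor libraries, and Rgs5 at most 7.0 CPM. The part of either cell type in the receptor levels was not tested.

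Within the receptor pair, levels per kilobase of exon put Pdgfrb above Pdgfra in every tumor library. The length used is that of all annotated exons of a gene joined together, not of the transcripts present. Shares and orders between genes rest on this length. Pdgfra made up 30.0%, 29.2% and 21.8% of the 2 receptors' per-kilobase level in control and 32.2%, 32.0% and 34.0% after treatment. Among 4 PDGF ligand genes, Pdgfb held 61.2% ± 0.450 (SD, n = 3) in control and 63.1% ± 1.90 (SD, n = 3) in treated tumors, and Pdgfa 15.9% ± 1.46 and 12.9% ± 1.34. Pdgfb was the leading ligand transcript in each of the 6 tumor libraries.

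**Figure D3:**
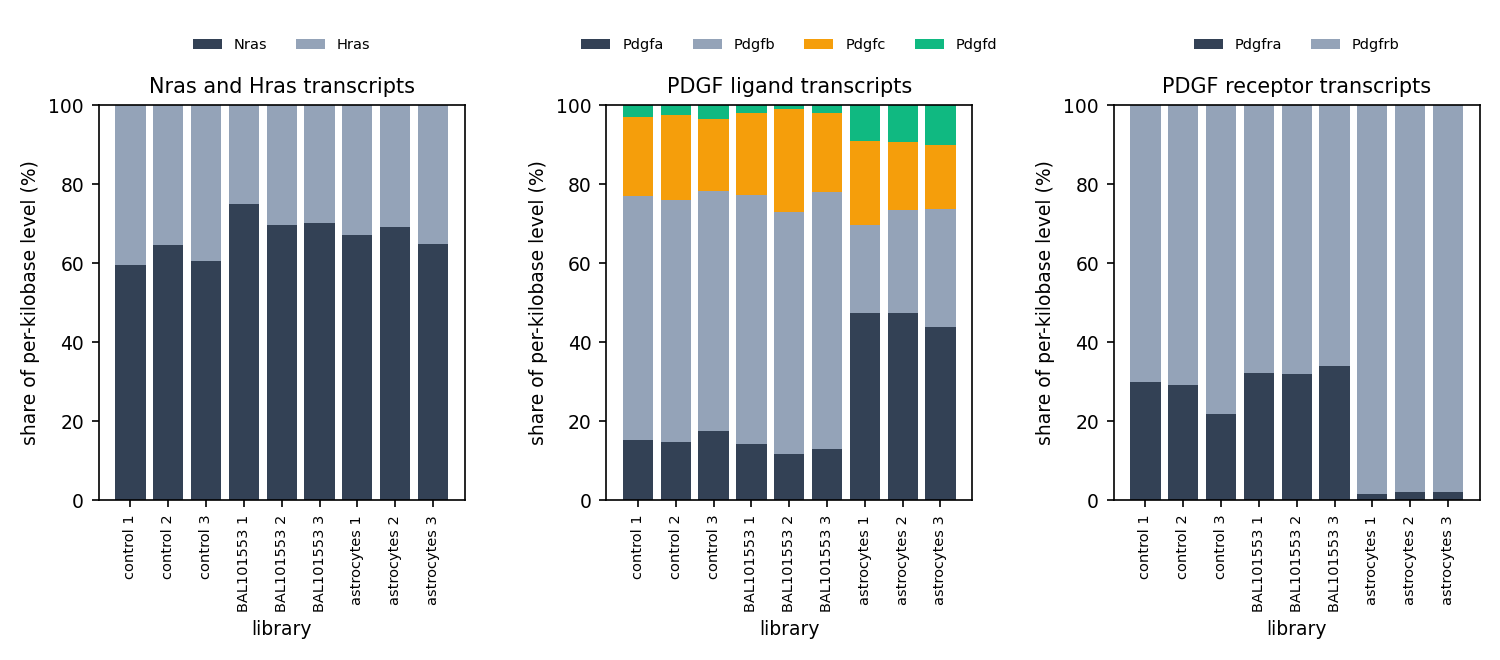
Share of each gene in the summed per-kilobase level of the genes in its panel (%), as stacked bars for each of the 9 libraries. Pdgfb takes the most of the ligand bar in tumor libraries and Pdgfa in the libraries labelled astrocytes, where Pdgfra is 1.63 to 1.99% of the receptor bar.

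Of the RAS genes, Hras was lower after treatment and Nras did not pass the test. Nras, which relays growth factor signals at the membrane (chr3:103058285-103067914, plus strand), held at 134, 135 and 135 CPM in control and 140.0, 134 and 136 CPM after BAL101553. The control libraries were within 1 CPM of each other, the groups overlapped, and the log2 fold change was 0.03 (SE 0.075, 95% interval -0.14 to 0.20, adjusted p = 0.799 by edgeR). Hras, its close relative (chr7:141189105-141194005, minus strand), fell from 64.1, 52.0 and 61.3 CPM to 32.7, 40.9 and 40.6 CPM. All 3 treated libraries were below all 3 control libraries, a 1.55-fold decrease (log2 fold change -0.63, SE 0.13, 95% interval -0.92 to -0.33, adjusted p = 0.0214 by edgeR). The log2 fold change was -0.57 without control 1, -0.61 without control 3 and -0.67 without BAL101553 library 3, with adjusted p of 0.0700, 0.0865 and 0.0525. Of the summed per-kilobase level of Nras and Hras, Hras held 40.6%, 35.5% and 39.4% in control and 25.0%, 30.3% and 29.9% in treated tumors, and the groups did not overlap.

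Nf1, whose product speeds GTP hydrolysis by RAS (chr11:79339693-79581612, plus strand), was at 77.4, 97.0 and 78.9 CPM in control and at 133, 133 and 113 CPM after BAL101553. The groups did not overlap and the rise was 1.5-fold (log2 fold change 0.59, SE 0.12, 95% interval 0.31 to 0.86, adjusted p = 0.0214 by edgeR). Of the 5 calls it was lost under the most alternatives, 5 of 18. The log2 fold change was 0.52 without control 1, 0.54 without control 3 and 0.55 without BAL101553 library 1, with adjusted p of 0.0726, 0.0902 and 0.0548. Nf1 has the most exon sequence of the members, 15850 bases. A trend on the length and GC content of each gene's longest transcript was taken out of each library. The log2 fold change of Nf1 was then 0.30 and its adjusted p 0.0793 by limma-trend.

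The tumor suppressors differed from each other. Trp53 (chr11:69580359-69591873, plus strand) was the least abundant member in tumor cells, with 3.40, 3.02 and 3.25 CPM in control, from 76, 81 and 78 reads, and 8.17, 9.50 and 9.09 CPM after BAL101553, from 242, 243 and 313 reads. Every treated library was over 2 times every control library. The rise was 2.78-fold (log2 fold change 1.48, SE 0.17, 95% interval 1.09 to 1.87, adjusted p = 0.00728 by edgeR), ranked 459 of 12633 genes by size, and it was called with any single library left out. One choice of 2 libraries per group, as many as the study states, was fitted: control 1 and 2 with BAL101553 2 and 3. No member was then called by edgeR, and the adjusted p was 0.0732 for Trp53 and 0.0733 for Pdgfra. Other choices of 2 were not fitted. At an unadjusted p under 0.05 there were then 5 members, and DESeq2 called 3. Cdkn2a (chr4:89274471-89294653, minus strand) was abundant and did not pass the test, at 325, 437 and 425 CPM in control and 361, 367 and 424 CPM in treated tumors. The treated libraries lay within the range of the control libraries (log2 fold change -0.04, SE 0.13, 95% interval -0.35 to 0.27, adjusted p = 0.864 by edgeR). The p16INK4a and p19ARF transcripts start from separate first exons, at chr4:89281986-89282192 and chr4:89294334-89294653, and a count per gene does not separate them.

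Per kilobase of exon, Cdkn2a led the members in control tumors at 338 CPM per kilobase, followed by Pdgfb at 69.5, Pdgfrb at 44.1, Nras at 25.2, Pdgfa at 18.0, Pdgfra at 16.4, Hras at 15.8, Nf1 at 5.33 and Trp53 at 0.796. Pdgfa, Pdgfra and Hras overlapped between libraries and cannot be ordered among themselves. The places of the others depend on the joined exon length, such as 3733 bases for Hras and 5331 for Nras. Which transcripts were present was not tested. After BAL101553, Pdgfra at 31.6 CPM per kilobase stood above Nras at 25.7, Pdgfa at 15.5 and Hras at 10.2, and no neighbours in the order overlapped. Trp53 stayed lowest at 2.21 CPM per kilobase.

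The bases just upstream of 3 members that changed are shown, those with the largest changes among members with an entry in the RefSeq promoter table (GRCm38.p6). Each is the 250 bases before the annotated start, 5′ to 3′ on the gene's strand, and capitals mark GGGCGG on either strand, the core of the GC box bound by SP1. The coordinates are chr11:69580109-69580358 for Trp53, chr5:75152001-75152250 for Pdgfra and chr7:141194005-141194254 for Hras.
Trp53: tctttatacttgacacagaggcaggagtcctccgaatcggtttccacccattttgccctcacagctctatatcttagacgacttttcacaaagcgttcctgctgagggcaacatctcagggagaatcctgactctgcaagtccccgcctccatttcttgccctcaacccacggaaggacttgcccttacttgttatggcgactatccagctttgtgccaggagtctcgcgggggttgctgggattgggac
Pdgfra: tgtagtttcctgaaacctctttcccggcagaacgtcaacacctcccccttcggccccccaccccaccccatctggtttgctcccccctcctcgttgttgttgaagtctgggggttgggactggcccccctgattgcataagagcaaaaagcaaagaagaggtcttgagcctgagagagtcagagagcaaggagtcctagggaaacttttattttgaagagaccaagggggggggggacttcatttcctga
Hras: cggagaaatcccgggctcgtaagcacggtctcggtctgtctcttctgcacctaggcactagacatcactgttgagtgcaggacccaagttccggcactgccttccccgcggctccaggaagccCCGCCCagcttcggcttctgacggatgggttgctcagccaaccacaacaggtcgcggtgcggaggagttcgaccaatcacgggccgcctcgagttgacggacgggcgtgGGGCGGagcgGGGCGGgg
The motif occurred 3 times before Hras and not in the windows of Trp53 and Pdgfra, and 32.7% of 32851 promoters of this length hold it. The 7 members with an entry have 9 windows, of which 5 held the motif. These belong to 4 members, Nras, Hras, Pdgfa and Cdkn2a, and Pdgfa and Cdkn2a have more than 1 window each.

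The rest of the PDGF, RAS and p53 routes was read from 10 gene lists. In 7 of the 10 the share of tested genes that were called was above the 14.7% over all genes. In these 7 the shares ran from 41.7% of the ERK-dependent transcripts (5 of 12) to 16.7% of the other glioma driver genes (2 of 12). The RAF-MEK-ERK kinases were at 37.5% (3 of 8). Below 14.7% lay the p53 regulators (11.1%), the adaptors and RAS exchange factors (9.09%) and the PI3K-AKT-mTOR genes (0 of 16). Some shares rest on few genes, such as 1 of 3 other PDGF genes and 2 of 11 INK4-RB genes. The lists were chosen with earlier results of these data known, so the tally is a description only. In 5 lists the calls went in both directions. List medians lay between -0.24 and 0.25 on the log2 scale. Of 3 other PDGF genes, Pdgfrl, a receptor-like gene, rose from 0.667 to 0.893 CPM in control to 1.76 to 2.41 CPM (log2 fold change 1.34, adjusted p = 0.0246 by edgeR). Pdgfc and Pdgfd, the remaining ligands, did not pass: the log2 fold change of Pdgfc was 0.25 (adjusted p = 0.212) and that of Pdgfd -0.83 (adjusted p = 0.0835). Of 11 adaptors and RAS exchange factors tested, 1 was lower, Grb2, the adaptor that brings SOS to the receptors (log2 fold change -0.32, adjusted p = 0.0424).

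Among 15 other RAS GTPases and RAS GTPase-activating proteins tested, 3 were higher and 1 lower. Rasa1 and Rasa2, which like Nf1 encode GTPase-activating proteins, were among those that rose: Rasa1 went from 113 to 123 CPM in control to 166 to 188 CPM (log2 fold change 0.56, adjusted p = 0.0123 by edgeR) and Rasa2 changed by 0.54 (adjusted p = 0.0331). The lower gene was Rras2, a RAS-related GTPase, at -0.76 (adjusted p = 0.0232). Of 8 RAF-MEK-ERK kinases, 2 were lower, among them Map2k2 at -0.47 (adjusted p = 0.0251), and Braf was higher, at 0.35 (adjusted p = 0.0394).

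Of 12 ERK-dependent transcripts tested, 4 were lower and 1 higher, with a median of -0.24. The ERK phosphatase gene Dusp5 fell from 56.2 to 79.0 CPM in control to 25.4 to 32.98 CPM (log2 fold change -1.22, adjusted p = 0.00728 by edgeR), with Phlda1 at -0.98 (adjusted p = 0.0110), Dusp4 at -0.67 (adjusted p = 0.0389) and Ccnd1, the gene of cyclin D1, at -0.47 (adjusted p = 0.0460). Spry1, which encodes an inhibitor of receptor signalling to RAS, went the other way, from 5.14 to 10.7 CPM to 19.0 to 39.7 CPM (log2 fold change 2.0, adjusted p = 0.0137). None of 16 PI3K-AKT-mTOR genes was called by edgeR's quasi-likelihood test. At an unadjusted p under 0.05 there were 6 of them, and DESeq2 called 3.

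In the p53 lists, 11.1% of the regulators and 25.0% of the p53-dependent transcripts tested were called. Mdm4, which restrains p53, was the 1 gene of 9 regulators tested to pass, rising from 37.9 to 44.4 CPM in control to 62.4 to 79.7 CPM (log2 fold change 0.87, adjusted p = 0.00934 by edgeR), whereas Mdm2, the p53 ubiquitin ligase, was at -0.04 (adjusted p = 0.862). Of 16 p53-dependent transcripts, Gadd45a (0.85, adjusted p = 0.00995) and Trp53inp1 (1.40, adjusted p = 0.0235) were higher and Phlda3 (-0.57, adjusted p = 0.0199) and Perp (-2.84, adjusted p = 0.0125) lower, and Cdkn1a, the gene of p21, gave 0.11 (adjusted p = 0.612). The median of these transcripts was 0.08. Perp was near the limit of detection after treatment, at 0.169 to 0.232 CPM from 5 to 8 reads. In the INK4-RB list, Ccnd2 (0.60) and Cdk6 (0.47) were higher among 11 genes, and Cdkn2b, the neighbor of Cdkn2a, gave 0.10 (adjusted p = 0.608). Of 12 other glioma driver genes tested, Egfr was lower at -0.97 (adjusted p = 0.0246) and Cic higher at 0.44 (adjusted p = 0.0215). Dusp5 was called with any single library left out, and Spry1, Phlda1, Mdm4, Gadd45a, Perp and Rasa1 with any but control 3, without which their adjusted p was above 0.05. The other 14 called genes named from these lists each lost their call without 1 or more of the libraries.

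**Figure D4:**
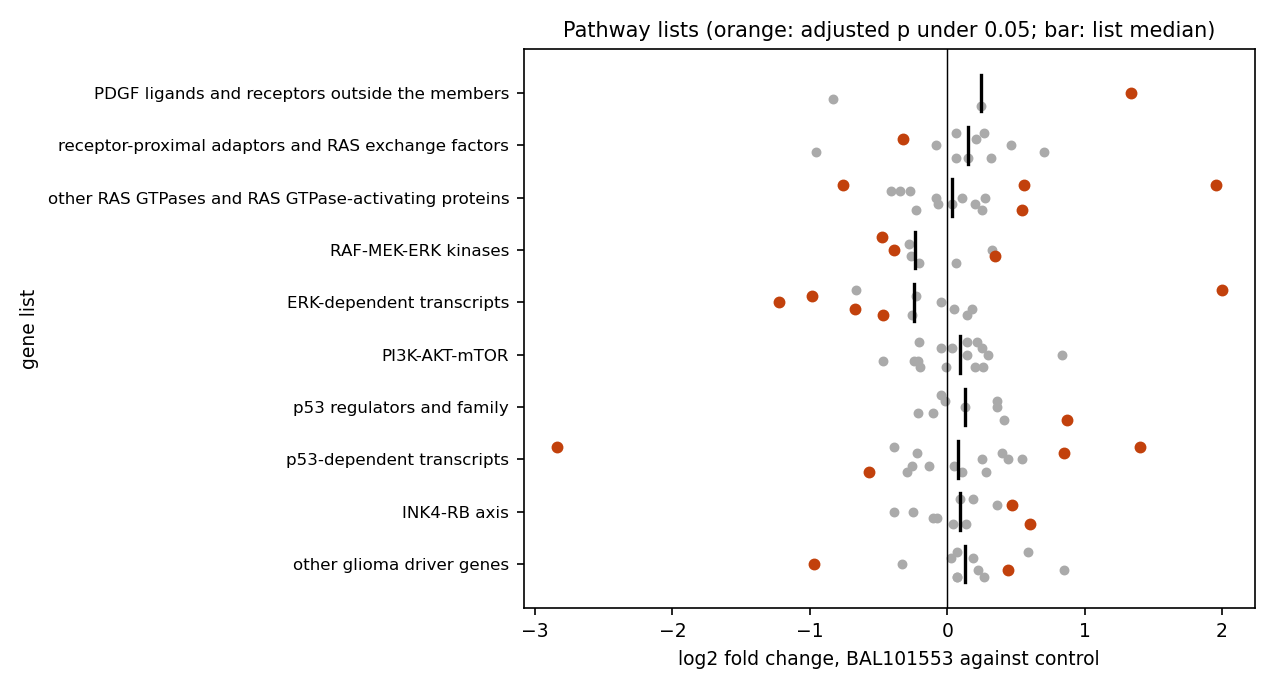
Log2 fold change, BAL101553 against control, of each gene tested in 10 pathway lists, with list medians as black bars and genes at an adjusted p under 0.05 in orange. Medians lie within 0.25 of 0, and Perp at -2.84 and Spry1 at 2.0 lie farthest out.

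The libraries labelled astrocytes were then compared with the tumor groups. Their labels give BAL101553 as treatment, so only the comparison with BAL101553 tumors keeps the labelled treatment the same. Against control tumors, cell type and drug differ together and cannot be told apart. Both comparisons use the same 3 astrocyte libraries, and the background is high: 85.1% of 15314 genes were called against BAL101553 tumors and 88.3% of 15207 against control tumors. Of the members, 8 were called in each, 1 higher and 7 lower against BAL101553 (all genes: 46.3% and 38.9%) and 2 higher and 6 lower against control (all genes: 48.8% and 39.5%). In each comparison the called members were those whose groups did not overlap, where 87.9% of all genes did not (48.7% higher, 39.2% lower) against BAL101553 and 89.8% (50.4% higher, 39.4% lower) against control, so the number called says little about these genes and the sizes are given instead. The median over the members was -0.93 and -1.25, beside 0.18 and 0.25 over all genes tested.

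Pdgfb and Pdgfra were far lower in the libraries labelled astrocytes. Pdgfb was at 14.8, 19.8 and 20.5 CPM there, 17.5-fold below BAL101553 tumors (log2 fold change -4.13, SE 0.15, adjusted p = 9.98e-08 by edgeR) and 16.3-fold below control tumors. Pdgfra was at 7.22, 9.26 and 8.59 CPM, 38.8-fold below BAL101553 tumors (log2 fold change -5.28, SE 0.13, adjusted p = 1.82e-08 by edgeR) and 20.3-fold below control tumors. Pdgfa, at 23.6, 26.9 and 22.5 CPM, differed less, by -1.02 against BAL101553 and -1.25 against control. None of these libraries reached the tumor range for the 3 genes. Among the ligands Pdgfa, not Pdgfb, took the largest per-kilobase share there, at 46.1% ± 2.04 (SD, n = 3) against 26.1% ± 3.83 (SD, n = 3).

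Pdgfrb was the exception among the receptors. At 238, 252 and 232 CPM it lay within the range of control tumors (log2 fold change -0.05, 95% interval -0.25 to 0.16, adjusted p = 0.624 by edgeR) and below BAL101553 tumors (log2 fold change -0.60, adjusted p = 0.000167). The direction against control turned with the scaling, to 0.15 with upper quartile scaling and to 0.26 with library totals, where the adjusted p was 0.0277. The summed mural cell genes were 1028 to 1179 CPM in these libraries, Vtn 595 to 698 CPM and Rgs5 94.4 to 116 CPM, and the part of such cells in the Pdgfrb level was not tested.

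Both RAS genes were lower in the libraries labelled astrocytes. Nras gave 77.6, 76.4 and 67.3 CPM there (log2 fold change -0.93 against BAL101553, SE 0.085, adjusted p = 1.69e-05 by edgeR, and -0.91 against control). Hras gave 26.5, 23.9 and 25.5 CPM, at -0.62 against BAL101553 (adjusted p = 0.000983) and -1.26 against control. Nf1, at 129, 118 and 99.1 CPM, overlapped with BAL101553 tumors (log2 fold change -0.16, adjusted p = 0.224 by edgeR) and was above all control tumors (log2 fold change 0.41, adjusted p = 0.0132). That call was lost without control 3 (adjusted p = 0.0574) or without astrocyte library 1 (0.0528).

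The tumor suppressors lay at opposite ends. Trp53 was at 32.9, 32.1 and 30.1 CPM, from 781 to 1042 reads, which was 3.47-fold above BAL101553 tumors (log2 fold change 1.79, SE 0.11, adjusted p = 1.68e-06 by edgeR) and 9.56-fold above control tumors (log2 fold change 3.26, SE 0.11, adjusted p = 2.68e-08). The 3 groups were thus ordered control, BAL101553, astrocytes without overlap. Cdkn2a was nearly absent, with 7, 4 and 44 reads or 0.221, 0.141 and 1.70 CPM (log2 fold change -9.23 against BAL101553, SE 0.58, adjusted p = 1.85e-06 by edgeR, and -9.29 against control). Astrocyte library 3 held most of these reads, and without it the log2 fold changes were -11.03 and -11.08. Its neighbor Cdkn2b was likewise low, at 0.820 to 1.54 CPM against 120 to 160 CPM in tumor libraries.

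Per kilobase, Pdgfrb led the members in the libraries labelled astrocytes at 43.9 CPM per kilobase, followed by Nras at 13.8, Trp53 at 7.83, Pdgfa at 7.80, Nf1 at 7.29, Hras at 6.78, Pdgfb at 4.41, Pdgfra at 0.834 and Cdkn2a at 0.585. Trp53 and Pdgfa overlapped, as did Pdgfa and Nf1, Nf1 and Hras, and Pdgfra and Cdkn2a, and those neighbours cannot be ordered. By group means, Trp53 was thus behind only Pdgfrb and Nras here and last in both tumor groups. Cdkn2a, at 0.121 to 1.45 CPM per kilobase, was here among the lowest with Pdgfra and led both tumor groups.

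In the pathway lists, the ERK-dependent transcripts were lower as a group: 11 of 13 fell and 1 rose against BAL101553, with a median of -3.30, and 11 fell and 2 rose against control, with a median of -3.28. In the INK4-RB list 9 of 11 fell and 2 rose in both comparisons, with medians of -2.21 and -2.30. Of 16 p53-dependent transcripts, 11 fell and 5 rose against BAL101553, with a median of -0.78, and Trp53 itself was higher. Against control 10 fell and 5 rose, with a median of -0.80. Not every list was lower. Of 8 RAF-MEK-ERK kinases, 4 rose and 3 fell against BAL101553 (median 0.13), and 4 rose and 4 fell against control (median 0.10). Of 13 adaptors and RAS exchange factors, 6 rose and 3 fell (median 0.13), and 6 rose and 4 fell (median 0.18). These counts stand beside shares of 38.9% and 39.5% of all genes called lower in the 2 comparisons, and 46.3% and 48.8% called higher.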

How the data were processed

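The authors sequenced stranded libraries, and the deposited table holds the counts of reads on each gene, as whole numbers without normalization, for all 9 libraries. The submitters' processing notes name TopHat, HTSeq 0.6.1 and the mouse build mm10; the study also names featureCounts. Which program made the table, the annotation and the strand setting are not given in the sources used here. Among the rows, 27 gene names had turned into dates (at most 0.440% of counts), and these rows were kept.

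The counts were tested with edgeR 4.0.16 in R 4.3.3 (filterByExpr, TMM, quasi-likelihood test, two-sided, only the 2 groups compared in each fit), with limma 3.58.1 and DESeq2 1.42.0 as alternatives. The SE of a log2 fold change is its size over the root of the F statistic. Libraries of a group differed by more than sampling noise in all 9 pairs (chi-square per degree of freedom 14.9 to 68.4). The code was run on counts simulated from a model fitted to the control and BAL101553 libraries, with 200 genes changed. Such a run checks the code and cannot show that the calls hold. Exon lengths, positions and transcripts came from GENCODE vM21 on GRCm38.

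Members and lists were chosen with earlier results of these data known. All members were named, and from each list at most the 4 largest called changes; Ccnd1, Mdm2, Cdkn1a, Cdkn2b and the marker genes were named in addition, after their values were seen. A few genes that these rules name are not reported here.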

Additional observations from a re-analysis of the deposited data

How the results depend on the processing

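The 5 members called in BAL101553 against control were called under DESeq2, the exact test, limma-trend, other scalings, both filters on low counts and all 9 libraries in one model. Deviations of same-numbered libraries from their group means correlated at 0.19, -0.05 and 0.17 between BAL101553 and control. The best control partners of BAL101553 libraries 1, 2 and 3 were 1, 1 and 3. In the astrocyte comparisons the correlations were 0.0032 to 0.0997. The best partners of astrocyte libraries 1, 2 and 3 were 1, 2 and 3 in BAL101553 and 2, 2 and 3 in control. With the replicate block 5 members were again called, as were 8 in each astrocyte comparison. With single libraries left out, 2 to 5 were called, with 2, Pdgfra and Trp53, without control 1 or without control 3. With 2 libraries per group, as many as the study states, 0 members were called by edgeR, 5 had an unadjusted p under 0.05 and DESeq2 called 3. These were control 1 and 2 and BAL101553 2 and 3, the only such choice fitted. Fewer samples enter these fits, and over all genes 1860 calls became 458 without control 1, 193 without control 3, 668 without BAL101553 3, 1133 without BAL101553 1 and 1 with 2 libraries per group. The calls were 2832 with DESeq2 and 3022 with all 9 libraries. Library totals moved the share of higher calls from 58.7% to 77.4% and the median of all genes from 0.02 to 0.10, and in the astrocyte comparisons from 0.18 to 0.39 and from 0.25 to 0.56.

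The sign of values near 0 turned. Cdkn2a in BAL101553 against control was 0.050 with library totals, 0.056 with 2 libraries per group, -0.17 to 0.034 with single libraries left out, and 0.13 with the length and GC trend removed, an alternative chosen after seeing the data that left 4 members called. That removal also turned Nras to -0.028. Nf1 in astrocytes against BAL101553 was 0.043 with library totals, 0.018 with upper quartile scaling and 0.062 with at least 10 counts in every library. Pdgfrb in astrocytes against control was 0.26, 0.15 and 0.21 under these settings and -0.13 to 0.013 with single libraries left out. Of the 21 genes called in the lists and named, 7 lost the call with the replicate block (Pdgfrl, Grb2, Braf, Trp53inp1, Ccnd2, Cdk6 and Ccnd1), 6 with the length and GC trend removed (Grb2, Rasa2, Braf, Ccnd2, Cdk6 and Cic), 2 with library totals (Grb2 and Ccnd1), 2 with at least 1 count in any library (Grb2 and Braf), 1 with upper quartile scaling (Ccnd1) and all 21 with 2 libraries per group. Pdgfd, not called, passed under DESeq2, the exact test and all 9 libraries. The causes were not tested. The members called were 7 to 8 in astrocytes against BAL101553 and 7 to 9 in astrocytes against control; Cdkn2a could not be tested with at least 10 counts in every library.

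Depth limits Trp53 in control tumors (76 to 81 reads) and Cdkn2a in the libraries labelled astrocytes (4 to 44 reads).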

Other observations

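Over the 6 tumor libraries, the genes whose log2 CPM followed each member closely were searched among 8993 genes with a mean of at least 10 CPM, as a description with no test. The 6 points share 2 groups, so any gene that differs between the groups scores high. Trp53 was followed closely by Syne1 and Slc36a1 (Pearson r = 0.998 for both), Nf1 by Lnpep (0.998) and Dcaf6 (0.997), Pdgfra by Ttc37 (0.996), Pdgfrb by Armc6 and Mmab (0.996 for both), and Hras by Dmwd (0.995). For these 5 members between 146 and 254 genes had r over 0.95. For Pdgfb there were 66, led by Rabl6 (0.993) and Atn1 (0.991). The other members that did not pass the test had few: 17 for Pdgfa, led by 1110004E09Rik (0.987) and Nppb (0.980), 10 for Cdkn2a, led by Wdr55 (0.982) and Fignl1 (0.979), and 7 for Nras, led by Ece1 (0.979) and Prkab2 (0.973).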
